A study of Mus musculus with 12 samples.

Results

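Oxidative phosphorylation couples the oxidation of NADH and succinate to ATP synthesis across the inner mitochondrial membrane. Its nuclear subunit genes were chosen by symbol, taking Nduf genes for complex I, Sdha to Sdhd for complex II, Uqcr genes and Cyc1 for complex III, Cox4 to Cox8 genes for complex IV and Atp5 genes for complex V. This gave 96 of the 25239 genes in the expression table, and 3 of the 2643 m6A peaks in the peak table lay on them. The symbols Ndufs5-ps and Cox7c-ps1 match but name pseudogenes and were left out.

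HT22 is an immortalized mouse line derived from hippocampal neurons, used here as wild-type cells. The cells were exposed to mesaconitine (MA), an alkaloid of Aconitum, at 800 μM for 72 h, or to 0 μM as the control, and whether control cells received the solvent is not given in the sources used here. Each condition has 3 input libraries and 3 libraries after immunoprecipitation with an antibody to N6-methyladenosine (m6A), the IP libraries. The tables give no value for a single library, so no spread between replicates and no test between conditions could be computed. Each value below rests on 1 number per gene or per library group.

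Of 11 neuronal markers, Dlg4, Syn1 and Tubb3 had base means of 4073, 710 and 473, and the others, among them Map2, Snap25 and Rbfox3, had base means of at most 1.18. The base mean is the authors' mean normalized read count over all libraries compared. The fibroblast markers Col3a1, Col1a1 and Pdgfra stood at 134804, 100160 and 8906, while no astrocyte, oligodendrocyte or endothelial marker reached the minimum of 10 set here and 1 of 3 microglial markers did, Aif1 at 64.3. The labelled hippocampal origin was thus matched by few of the neuronal markers listed, and the fibroblast markers were the most abundant of those examined.

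Complex I takes electrons from NADH, complex II takes them from succinate, complex III passes them from ubiquinol to cytochrome c, and complex IV passes them to oxygen. Complexes I, III and IV pump protons, and complex V uses the gradient to make ATP. Most subunits are encoded in the nucleus and some in mitochondrial DNA, and the expression table used here holds 0 genes with the mt- prefix of mitochondrial genes. The m6A mark is placed on adenosines in mRNA, typically within the motif DRACH, where D is A, G or T, R is A or G, and H is A, C or T.

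The 3 members with a listed peak were Cyc1, which encodes the heme-carrying cytochrome c1 of complex III, and Ndufs1 and Ndufs3, which encode core subunits of complex I. The exonic sequences within the peaks are printed from the GRCm38 assembly, the same as mm10, 5′ to 3′ on the transcribed strand. They show where on the mRNA each peak lies. Capitals mark DRACH motifs.
Cyc1: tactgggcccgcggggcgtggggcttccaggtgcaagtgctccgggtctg
Ndufs1: aaAGACTtctataTGACAGACTcca
Ndufs3: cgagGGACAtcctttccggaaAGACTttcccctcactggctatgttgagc

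The Cyc1 peak lay at chr15:76343598-76343647 on the + strand, in exon 1 of 7 of its longest coding transcript, with all 50 bases coding and the first of them 34 bases after the first coding base. It held 0 DRACH motifs, and 72% of its bases were G or C, against a median of 52% over the 2390 peaks that could be placed on a coding transcript of the named gene. Among all 948 peaks of 50 exonic bases, 62.3% held DRACH on the transcribed strand.

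The Ndufs1 peak was listed as 1 block of 3222 bases on the − strand, chr1:63143917-63147138. On the longest coding transcript that has both peak ends in exons, 25 of these bases are exonic, 19 in exon 18 and 6 in exon 19, all coding and starting 2073 bases after the first coding base in a coding length of 2181 bases. These 25 bases held 3 DRACH motifs, of which AGACT occurred at 2 places, the second of them overlapping TGACA. The motif was present in 45.3% of the 128 peaks with 25 exonic bases.

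The Ndufs3 peak was also listed as 1 block, chr2:90894877-90898432 on the − strand, with 50 exonic bases out of 3556. On the transcript chosen in the same way, 49 of the bases were in exon 6 and 1 in exon 7, all coding, starting 575 bases after the first coding base in a coding length of 789. They held 2 DRACH motifs, GGACA and AGACT. Spans across an intron were common in the table, with 805 of the placed peaks (33.7%), and whether intronic reads entered the counts is not stated.

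At the Cyc1 peak the deposited counts were 139 reads in control input, 69 in control IP, 48 in MA input and 191 in MA IP. The count was thus lower in IP than in input for control cells and higher in IP for MA-treated cells. The share of IP reads among input and IP reads was 33.2% in control (exact Clopper-Pearson 95% interval 26.8% to 40.02%) and 79.9% after MA (74.3% to 84.8%). These intervals, like all others here, cover counting error only. They assume that each deposited count is a number of reads, as a sum over replicates would be.

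**Figure D1:**
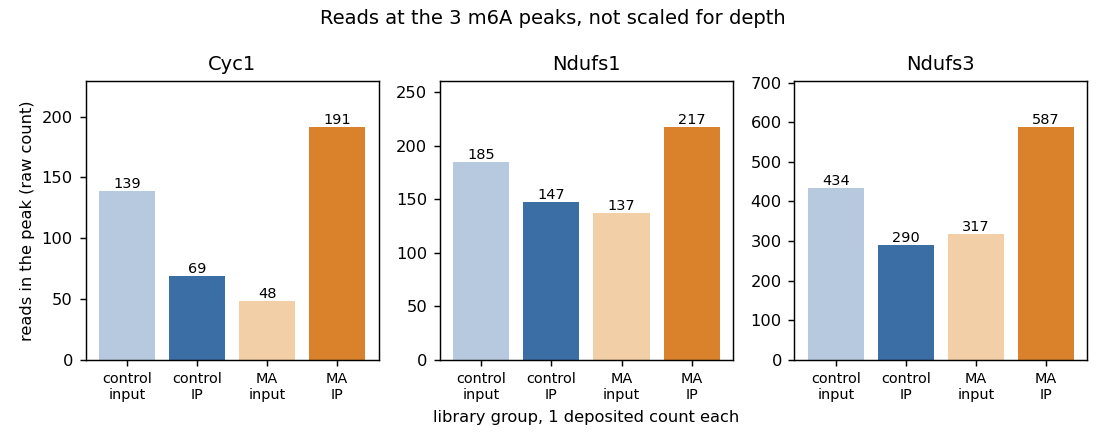
Raw read counts (vertical axis, separate scale per panel) at the m6A peaks of Cyc1, Ndufs1 and Ndufs3, with 1 bar for each library group as deposited and no error bars, since no replicate values are given. In each panel the control IP bar is lower than the control input bar and the MA IP bar is the highest.

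At the Ndufs3 peak the reads numbered 434 in input and 290 in IP for control cells, and 317 in input and 587 in IP after MA. The IP share was 40.1% in control (36.5% to 43.7%) and 64.9% after MA (61.7% to 68.0%). At the Ndufs1 peak they numbered 185 and 147 in control and 137 and 217 after MA, which gives IP shares of 44.3% (38.9% to 49.8%) and 61.3% (56.0% to 66.4%). These shares also take in any difference between library groups that most peaks have in common. The intervals of the 2 conditions were therefore not compared. Summed over all 2643 peaks, the table holds 288659 input and 267002 IP reads for control and 214778 and 359889 for MA.

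The depth of the whole libraries is not in the table, so the change was read against the typical peak. Over the 2475 peaks with at least 10 input reads in each condition, the median difference in log2 IP to input ratio, MA minus control, was 0.88. Taken separately, the median log2 ratio of MA to control was -0.44 for input reads and 0.46 for IP reads. The median difference of 0.88 was subtracted from every peak, which also removes any change in m6A that most peaks share. Before this step 1569 peaks were past 1.5-fold higher and 187 past it lower. Peaks past 1.5-fold higher after this centring were 659 of 2475, or 26.6%, and peaks past 1.5-fold lower were 618, or 25%. The similar numbers in the 2 directions follow from the centring itself. Of the 3 members' peaks, Cyc1 and Ndufs3 were past 1.5-fold higher and 0 were past it in the other direction. At a fold of 2, 14.8% of all peaks were past it higher and 14.1% lower, and of the members' peaks 1 was past it, that of Cyc1.

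The Cyc1 peak had a centred difference of 2.11 on the log2 scale (95% counting interval 1.49 to 2.72), a 4.31-fold higher IP to input ratio after MA than the median peak's change, and 97.5% of all peaks had a lower difference. Its input reads fell by 1.52 on the log2 scale, against the median of -0.44 over peaks, and its IP reads rose by 1.46, against 0.46. Both library kinds thus moved away from the median, in opposite directions. The 102 peaks with a GC content over 70% had a median centred difference of 0.24, and the medians of the 4 bins of lower GC content lay between -0.02 and 0.03. Over the 2239 placed peaks with enough reads, Spearman's rho between GC content and centred difference was 0.028. The part of base composition in the Cyc1 value was not tested.

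The Ndufs3 peak had a centred difference of 0.59 (0.30 to 0.88), or 1.51-fold, which is just past the fold used, and 73.7% of all peaks lay below it. Its input reads differed by -0.45 on the log2 scale, close to the median of -0.44, and its IP reads by 1.02. Of the 51 stretches of 50 bases that cover at least 25 bases of this peak, 10 have an exact copy elsewhere in the genome, whereas 0 stretches over the Cyc1 and Ndufs1 peaks do. The Ndufs1 peak had a centred difference of 0.11 (-0.33 to 0.55), an interval that includes 0, with 55.2% of all peaks below it.

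**Figure D2:**
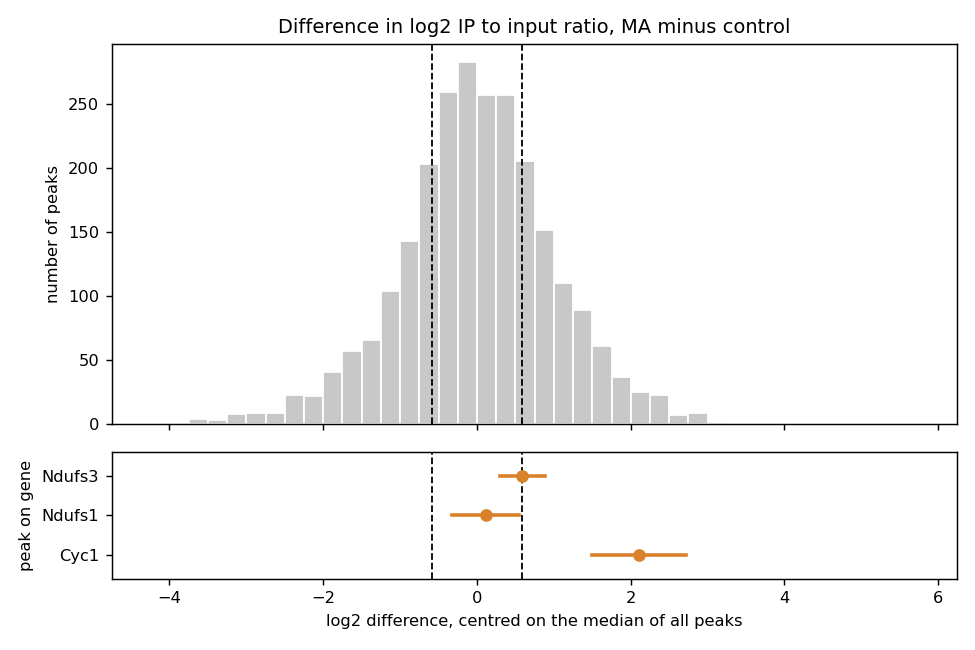
Upper panel, number of peaks (vertical axis) by the difference in log2 IP to input ratio, MA minus control, centred on the median of the 2475 peaks with enough input reads, with dashed lines at 1.5-fold. Lower panel, the values of the members' peaks as points with 95% counting intervals as lines: Cyc1 at 2.11 lies in the upper tail, Ndufs3 at 0.59 near the line and Ndufs1 at 0.11 near the centre.

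A listed peak was less common on these genes than over all genes, and so it was on coding genes of similar length. Among members with a base mean of at least 10, 3 of 88 (3.41%) carried a peak, against 1943 of all 12435 genes at that level (15.6%). Among the 4761 genes with base means between the members' quartiles, 848 and 4384, 19.5% carried a peak. The members' mRNAs are short, with a median longest coding transcript of 955 bases against 3158 for all coding genes at that level and 4092 for those with a peak. Among the 1535 coding genes within the members' quartiles of length, 669 to 1552 bases, 7.17% carried a peak. The mitochondrial ribosomal protein genes, another large nuclear set for this organelle, carried a peak in 5 of 78 cases (6.41%). None of these shares was tested against another. The paper reports more m6A peaks, on more genes, than the peak table used here holds. The shares therefore count listed peaks only, and a gene without a listed peak may still carry m6A.

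Genes that assemble or regulate the complexes carried peaks as well. Of 40 assembly and electron carrier genes at a base mean of at least 10, Cox10 and Sco1 had 3 peaks between them. Cox10 makes heme for complex IV, and Sco1 delivers copper to it. The centred differences were 0.14 (-0.14 to 0.43) for Cox10, and 0.67 (-0.35 to 1.69) and 0.39 (-0.19 to 0.96) for Sco1. All these intervals include 0. Of 10 regulators, 5 had 6 peaks in all, with a median centred difference of 1.05. Over all genes 15.6% had a listed peak, a share not matched to the regulators in transcript length or level, and no test was run. Of these 6 peaks 3 were past 1.5-fold higher and 1 past it lower, beside the 26.6% and 25% over all peaks. A peak of Ppargc1a, the coactivator PGC-1α of mitochondrial biogenesis, had 40 input and 3 IP reads in control, 17 and 136 after MA, and a centred difference of 5.62 (3.89 to 7.35), the highest of all 2475 peaks. Its other peak, with 11 input and 7 IP reads in control and 11 and 40 after MA, had a centred difference of 1.55 with an interval that includes 0 (-0.08 to 3.18). The related coactivator genes Pprc1 and Ppargc1b had centred differences of 2.01 (1.37 to 2.65) and -2.26 (-3.11 to -1.41), so the family did not share a direction. Both Ppargc1a peaks and that of Esrra held 0 DRACH motifs, and those of Pprc1, Ppargc1b and Tfb1m held 2, 1 and 3.

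The second readout is the level of each member, given as base mean per kilobase of the median coding transcript of the gene in GENCODE M21. It is a mean over libraries of both conditions and says nothing of MA. Of the 96 members, 88 reached a base mean of 10 and 87 of these had a transcript length. The median of the 87 was 3277, against 565 for the 11535 coding genes at the same minimum, and 79 of the 87 were above that median gene. The values ran from 26.9 for Cox7a1 to 78583 for Uqcrh.

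**Figure D3:**
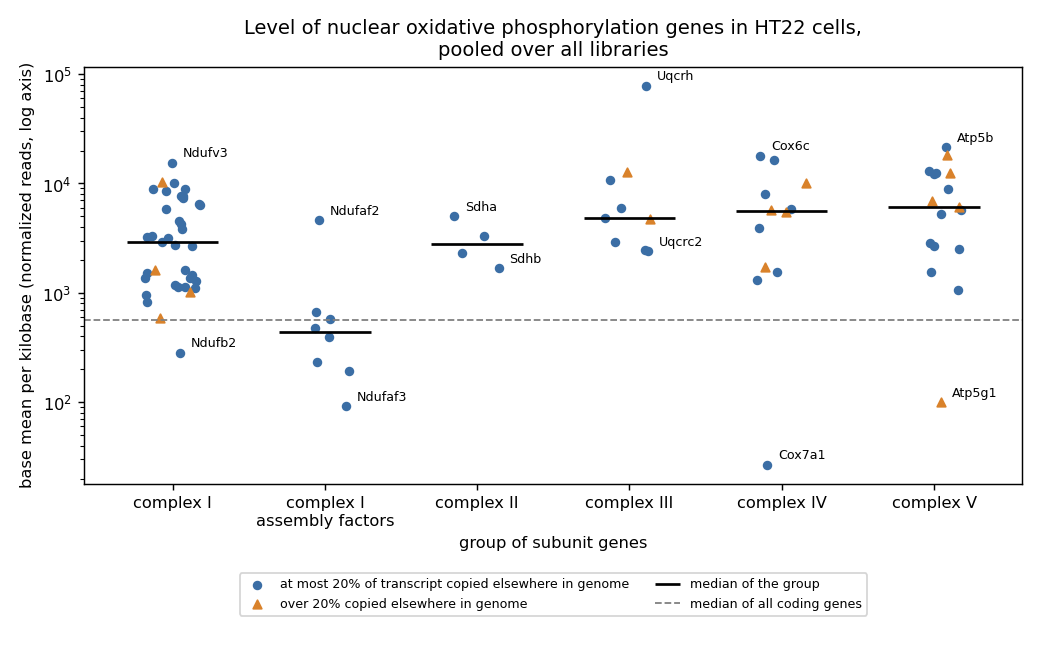
Base mean per kilobase (log axis) of the 87 members with a length, by complex, 1 point per gene, with the highest and lowest gene of each group named. Black bars are group medians, the dashed line is the median of all coding genes at 565, and orange triangles are genes with over 20% of their transcript copied elsewhere in the genome; the assembly factors are the only group with its median (434) under the dashed line.

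Complex I was represented by 40 members beside the assembly factors, with a median of 2895 per kilobase over 37 of them. By their symbols Ndufa4 and Ndufa4l2 were counted here, although Ndufa4 is known as a subunit of complex IV. The highest were Ndufv3, Ndufa12 and Ndufb9, all accessory subunits, at 15524, 10365 and 10186 per kilobase. The lowest per kilobase were Ndufb2, Ndufs3 and Ndufs8, at 285, 595 and 824, of which Ndufs3 and Ndufs8 are core subunits. The 7 core subunits, which form its conserved catalytic part, had a median of 2895, and the 30 accessory ones a median of 2941. With longest transcripts these medians were 1543 and 2011. Of the core genes with a peak, Ndufs1 stood at 6307 per kilobase, but at 1543 when divided by its longest transcript of 2661 bases in place of the median of 651. The same change took Ndufv3 to 6329 and Ndufb2 to 157. The median length used for Ndufb2 was 2413 bases, and its base mean of 687 was above the 622 of Ndufs3.

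The assembly factors Ndufaf1 to Ndufaf8, which help build complex I and are not part of the finished enzyme, had a median of 434 per kilobase. Ndufaf2 stood apart at 4633, and the next, Ndufaf8, was at 665. Ndufaf7, Ndufaf5, Ndufaf4, Ndufaf1 and Ndufaf6 followed at 577, 472, 396, 235 and 195, and Ndufaf3 was lowest at 92.0. Ndufaf2, Ndufaf8 and Ndufaf7 were above the median coding gene. With longest transcripts, where the median coding gene stood at 386, Ndufaf7 at 280 fell below it and Ndufaf5 at 472 lay above it.

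Complex II, which is also an enzyme of the citric acid cycle, had the narrowest range. Sdha, the flavoprotein subunit, stood at 5013 per kilobase, the membrane anchors Sdhc and Sdhd at 3277 and 2330, and the iron-sulfur subunit Sdhb at 1676, a span of 2.99-fold. With longest transcripts Sdhc fell to 842 and took the lowest place.

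Complex III had a median of 4792 over 9 members. Uqcrh, the hinge protein, was the highest of all members at 78583 per kilobase and lay above 99.8% of coding genes. Uqcrb and Uqcrc1 followed at 12752 and 10680, and the Rieske iron-sulfur protein gene Uqcrfs1 was at 2895. The lowest were Uqcrc2 at 2400 and Cyc1 at 2473, the member with the largest peak difference. With longest transcripts Uqcrc1 and Cyc1 stood at 3444 and 1165.

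Complex IV showed a sharp separation of isoforms. The widely expressed forms Cox6c, Cox4i1 and Cox5b led at 17984, 16492 and 10177 per kilobase, with Cox7b at 8004. Cox7a2, Cox5a and Cox7a1 were the lowest above the minimum, at 1538, 1314 and 26.9. In base means, Cox4i1 had 12286 and its lung isoform Cox4i2 1.41, and Cox6b1 had 2843 and the testis isoform Cox6b2 1.36. The heart and muscle form Cox7a1 had 11.8 beside 1014 for Cox7a2, or 1.15% of their sum. Cox6a2, Cox7b2, Cox8b and Cox8c were at 0 in the table, while their partners Cox6a1, Cox7b and Cox8a had 2251, 8012 and 3163.

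**Figure D4:**
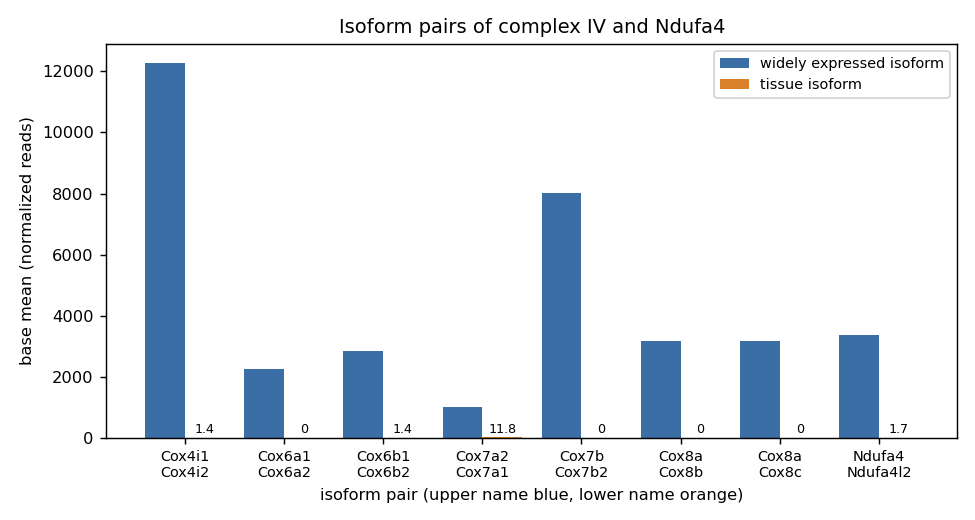
Base mean (vertical axis, mean normalized reads over the libraries compared) of 8 isoform pairs, with the widely expressed form in blue and the tissue form in orange, its value printed above its place. The highest tissue form is Cox7a1 at 11.8, and Cox8a appears in 2 pairs.

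Ndufa4 had a base mean of 3367, and Ndufa4l2, its relative known from hypoxic cells, had 1.65. The Ndufa11b symbol had 0.52 and has no coding transcript in the annotation used here, and Ndufb4c, likewise without one, had 573. Of the stretches of 50 bases in the Ndufb4 transcript 37.0% also occur in Ndufb4c, so the base mean of 1585 for Ndufb4 and that of its copy are uncertain.

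Complex V, the ATP synthase, had a median of 6039 per kilobase over 17 members, above the 5595 of complex IV. The order turned when members sharing over 20% of their stretches with transcripts of other genes were left out (5255 and 5751). Complex V stayed above complex IV with longest transcripts (5223 and 4956). It also did without members copied over 20% elsewhere in the genome (5464 and 4895). In its catalytic F1 sector, Atp5b led at 21510, with Atp5c1 at 12182 and Atp5a1 at 8846, and the small subunits Atp5e and Atp5d had 2848 and 2524. The stalk genes Atp5h, Atp5pb, Atp5j and Atp5o, which hold F1 in place, had 18294, 12495, 12449 and 6886. Atp5k, a membrane subunit, had 13051. The genes Atp5g3, Atp5g2 and Atp5g1 encode the same mature c subunit of the proton-driven ring, and had 5255, 1061 and 99.5. Atp5g1 had 29.4% of its stretches copied elsewhere in the genome. Its median length was 2675.5 bases, beside 683 for Atp5g2 and 718.5 for Atp5g3. Atp5md, another membrane subunit, was at 1542 and fell to 204 with its longest transcript.

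Many of these transcripts share sequence with other places in the genome. Of the 87 members, 15 had an exact copy elsewhere in the genome for over 20% of the stretches of 50 bases in their longest transcript, and 40 had none. Atp5l had 84.0% copied, Uqcrb 61.5%, Atp5h 59.6%, Cox7a2l 55.2%, Ndufs5 49.8% and Ndufs3 43.0%. The 15 genes had a median of 5751 per kilobase and the others one of 3027. For Ndufs5, however, the pseudogene row Ndufs5-ps had a base mean of 5314, which is 9.32 times the 570 of Ndufs5 itself, while Cox7c-ps1 had 28.8 beside 930 for Cox7c. Overlap with a neighbouring gene was seen as well, as 34.1% of the Ndufb6 stretches are shared with Smim27, 27.1% of those of Ndufa13 with Tssk6 and 24.8% of those of Uqcrc2 with Pdzd9. How reads with several matching places were assigned is not given in the sources used here, and its part in these levels was not tested.

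Base means of the genes around the complexes were lower at the median than the 2744 of the 88 members, which ran from 11.8 to 41214. The 40 assembly and carrier genes had a median of 642, from 24.0 for Sco2 to 10159 for Atpif1, the inhibitor of ATP synthase, whose older symbol falls outside the rule. Cycs, which encodes somatic cytochrome c, the carrier between complexes III and IV, had 3939. The 10 regulators had a median of 1309, with Tfam, the packaging and transcription factor of mitochondrial DNA, at 3683 and Ppargc1a at 3446. These are base means without division by length, so they were not compared with levels per kilobase.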

How the data were processed

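The submitters' notes name HISAT2, StringTie, DESeq and mm10. Per the study's methods, the authors used fastp on the raw reads and HISAT2 for alignment to mm10, followed by StringTie for gene levels and DESeq2 for the group comparison. The library kit was stranded and added molecular identifiers per the labels, and their use in counting is not stated. The base mean is a normalized signal deposited by the authors, 1 value per gene over the libraries compared. Read counts per m6A peak were deposited by the authors, who called peaks with exomePeak2, as 1 raw count per library group. Whether these are sums over the 3 replicates is not stated. Versions are not given in the sources used here.

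Both tables also hold the authors' own comparisons, which are fold changes, their standard errors and test statistics, log2 ratios of IP to input, p-values and adjusted p-values. None of these columns was used, so the expression of the members in MA-treated against control cells is not analysed here.

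Base means were divided by the median length of the gene's protein-coding transcripts in GENCODE M21, which gave a length for 94 of 96 members. A base mean of at least 10 was required. For peaks, 0.5 reads were added to each count, the difference of log2 IP to input ratios was centred on the median of peaks with at least 10 input reads per condition, and its 95% interval was computed from the 4 counts alone, without the error of the median. A fold of 1.5 was used. Peaks naming several genes (68) were not assigned to members. Copies were exact matches of 50 bases on either strand in the chromosomes of GRCm38, outside the gene's own locus. The interval was tested on simulated counts that held counting error only, so that test does not cover spread between replicates. The copy search was tested on a transcript piece planted in random sequence. Work was done with Python 3.11.15, numpy 2.4.6, pandas 2.3.3 and scipy 1.17.1, and figures with matplotlib 3.10.9.

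The members and lists were chosen with earlier results of these data known. Named were members with a peak or at 0, the 3 highest and 3 lowest of each complex, tissue isoforms with their partners, and Ndufaf1 to Ndufaf8. Further members were named for their role or for copied sequence after their values were seen. The division of complexes I and V by role was also added then.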

Additional observations from a re-analysis of the deposited data

How the results depend on the processing

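No paired analysis was possible because the tables carry no values of single libraries, and for the same reason no replicate could be left out. Without centring, the differences of the members' peaks were 2.99 for Cyc1, 0.99 for Ndufs1 and 1.47 for Ndufs3, and over all peaks 1569 were then past 1.5-fold higher and 187 lower. Scaling to the summed reads of all peaks gave 673 and 599. At a fold of 2 in place of 1.5 the number of members' peaks past it was 1, beside 14.8% of all peaks higher and 14.1% lower. Dividing by the longest coding transcript lowered the median of the assembly factors to 257 per kilobase and moved the rank of 8 of 87 members within their complex by over 5 places. It also lowered the median of the complex I core genes to 1543 and that of the other membrane subunits of complex V to 3207. The leaving out of members with genome copies and the role medians with longest transcripts were added after the data were seen. The other 45 values under alternatives moved by at most 1.5 times for medians and counts, and by less than the counting interval for peaks; without centring all 3 members' peaks were past the fold. Depth limits the peaks to changes larger than their counting intervals, and the spread between replicates is unknown.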
